A study of Bos taurus with 11 samples.

Results

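Prostaglandins are short-lived lipid signals made from arachidonic acid, which phospholipases release from membranes. The cyclooxygenases PTGS1 and PTGS2 turn arachidonic acid into a common precursor, terminal synthases such as PTGES convert the precursor into the active prostaglandins, and HPGD followed by the reductases PTGR1 and PTGR2 inactivates them. The trophectoderm (TE), the outer epithelium of the blastocyst, is known as a source of prostaglandins in cattle before implantation. PTGR1 and 7 further genes of this route were examined here, 8 of the 12056 RefSeq transcripts listed for bovine blastocysts. Each gene was found by pairing its accession with its symbol, and each was represented by 1 transcript. All 8 were analysed in the table of CDX2 KO, and 6 in that of GATA3 KO, where PTGS1 and HPGD were not analysed here. PTGR1 had been picked because its KO and WT control values differ in these same embryos, so its differences are given as a description with no test. The other genes were chosen for their function.

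Single blastocysts produced in vitro were collected on day 7 after fertilization and sequenced one embryo per library. The WT control group (n = 3) had received mRNA of BE3, a cytosine base editor, with no guide RNA. The GATA3 KO group (n = 4) had received BE3 mRNA with a mixture of guide RNAs against GATA3, and the CDX2 KO group (n = 4) had received BE3 mRNA with guide RNAs against CDX2. All groups thus carried the editor, each KO embryo was edited on its own and may hold several alleles, and sex was not given. The KO embryos are called by their column numbers, 3 to 6 for GATA3 KO and 2 to 5 for CDX2 KO. Each KO was compared with the same 3 WT control embryos in a table of its own, and since each table was normalized separately, values of the 2 tables are not on one scale.

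Recovered counts summed to between 150057 and 540775 per embryo in the table of GATA3 KO and between 100731 and 662962 in that of CDX2 KO, with the lowest total in CDX2 KO embryo 3. A floor of 3 counts corresponded to a normalized count of 1.29 to 4.66 and of 1.61 to 6.99, and covers counting error only. For the WT control embryos, the count in the table of CDX2 KO was a median of 1.85, 1.75 and 1.83 times the count in the other table, so the 2 tables do not count reads alike. The targeted genes were lower in their own KO group. GATA3, in normalized counts, lay between 71.3 and 87.6 in WT control and between 9.85 and 13.1 in GATA3 KO embryos, and CDX2, at 2 to 8 counts in the KO embryos, lay between 6.88 and 11.1 in WT control and between 1.66 and 4.66 in CDX2 KO embryos. CDX2 was also lower in the GATA3 KO embryos, at 0.0 to 3.45 against 4.66 to 9.73 in WT control, so its level does not tell the KO groups apart. Those GATA3 KO embryos had 0 to 8 counts of CDX2. The lowest control lay at its floor of 3 counts, so this gap is near the floor. Of transcripts with a mean of at least 10 there, which leaves CDX2 out, 7.05% lay below WT control in every GATA3 KO embryo. GATA3 lay between 30.3 and 122.6 in CDX2 KO embryos and between 96.4 and 128.8 in WT control.

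PTGR1 (NM_001035281) encodes a reductase that saturates the double bond of keto prostaglandins after HPGD has acted, and that also oxidizes leukotriene B4. It was higher than WT control in all GATA3 KO embryos and lower than WT control in all CDX2 KO embryos. Beside GATA3 KO, WT control embryos 1 to 3 had normalized counts of 50.5, 44.3 and 14.0. GATA3 KO embryos 3 to 6 had 82.5, 52.1, 81.0 and 85.4. The groups did not overlap, although GATA3 KO embryo 4 lay just above the highest WT control embryo. The means were 36.3 ± 19.5 (SD, n = 3) and 75.2 ± 15.5 (SD, n = 4), a ratio of 2.07. The difference of the mean log2(normalized count + 1), the scale of every log2 difference below, was 1.19 (SE 0.36).

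Beside CDX2 KO, PTGR1 was at 75.5, 60.0 and 18.3 in WT control embryos 1 to 3 and at 11.0, 4.66, 9.12 and 8.59 in CDX2 KO embryos 2 to 5. All CDX2 KO embryos lay below WT control embryo 3, the lowest control. The means were 51.3 ± 29.6 (SD, n = 3) and 8.35 ± 2.67 (SD, n = 4), 6.14 times higher in WT control. The log2 difference was -2.31 (SE 0.53). These values rest on 16 to 119 counts in WT control but on 2 to 16 counts in CDX2 KO embryos, and embryo 3, with 2 counts, was under the floor. For GATA3 KO they rest on 9 to 64 and 57 to 121 counts.

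**Figure D1:**
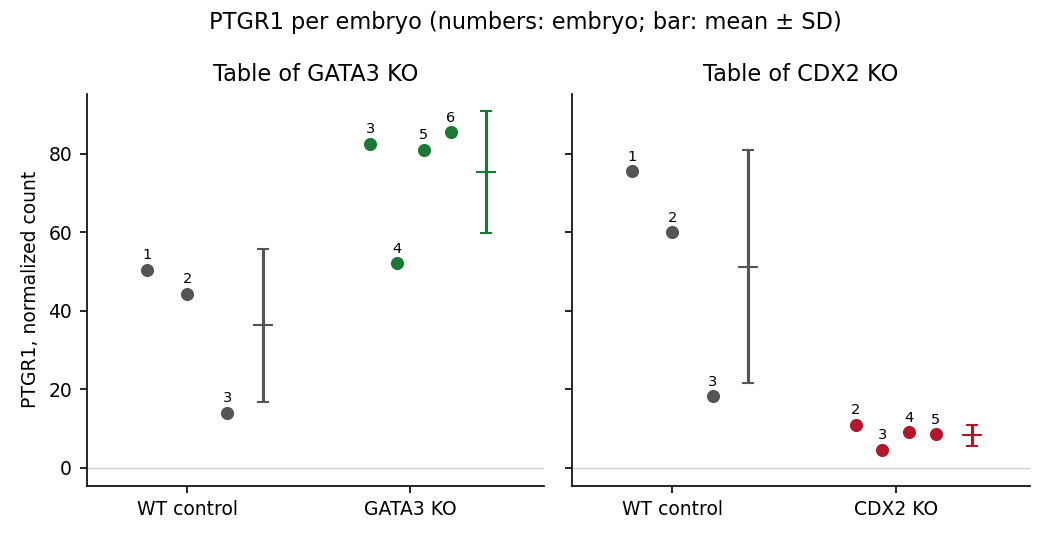
PTGR1 in normalized counts (vertical axis, linear) for each embryo of the table of GATA3 KO (left) and of CDX2 KO (right). Points are embryos with their numbers, and the bars give the mean ± SD of the group. GATA3 KO embryos sit between 52.1 and 85.4, above the WT control embryos at 14.0 to 50.5, and CDX2 KO embryos sit between 4.66 and 11.0, below the same control embryos at 18.3 to 75.5 on the scale of their own table.

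Groups that do not overlap were not rare. Of the 4271 transcripts with a mean of at least 10 in the table of GATA3 KO, 11.9% lay above WT control in all 4 KO embryos, and of 5719 in that of CDX2 KO, 3.36% lay below it in all 4. The WT control embryos also differed widely among themselves in PTGR1, by 3.61 times between the highest and the lowest in the first table and by 4.12 times in the second. WT control embryo 3 had the low value, and the size of both differences depended on it. Without this embryo the log2 difference was 0.63 for GATA3 KO and -2.92 for CDX2 KO. The median of all tested transcripts was 0.11 and -0.15 on the same scale. After quantile normalization it was 0.0 and -0.04, and the PTGR1 differences were 1.05 and -2.16.

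Cell type markers were summed in each embryo. The summed level of the 8 TE markers listed in the table of GATA3 KO (CDX2, GATA2, GATA3, KRT8, KRT18, KRT19, TFAP2A and TFAP2C) was 7680, 6154 and 3373 in WT control embryos 1 to 3, in the order of their PTGR1 values. It was 3501 to 5103 in GATA3 KO embryos, within the WT control range, where PTGR1 lay above that range. GATA3 and CDX2, lower in every GATA3 KO embryo, added little to it, at most 87.6 and 9.73 in WT control. The sum thus follows the most abundant markers and does not stand for each of the 8. With ELF5 added, the sum in the table of CDX2 KO was 4727 to 11878 in WT control and 2356 to 7883 in CDX2 KO embryos. CDX2 KO embryos 2 and 3, at 3845 and 2356, lay below the WT control range of the sum and had PTGR1 at 11.0 and 4.66, and embryos 4 and 5, at 7883 and 6416, lay inside it and had PTGR1 at 9.12 and 8.59. Because whole blastocysts were sequenced, fewer cells of a type and less RNA per cell cannot be told apart. Inner cell mass markers summed to 123.2 to 177.2 in WT control and 69.5 to 206.0 in GATA3 KO embryos, and to 150.9 to 237.3 in WT control and 114.2 to 270.4 in CDX2 KO embryos. Primitive endoderm markers summed to 641.5 to 795.8 and 525.5 to 1205 in the first table and to 990.2 to 1110 and 637.7 to 1401 in the second, where SOX17 was added. Markers of cumulus and granulosa cells, which surround the oocyte, were few. They summed to 21.6 to 60.8 in WT control and 9.03 to 44.1 in GATA3 KO embryos for the 5 of 13 listed, and to 49.0 to 107.2 and 71.4 to 121.3 for the 12 listed in the table of CDX2 KO. Sperm markers were at or below 9.32 in sum, and their part and that of the other cell types in the PTGR1 differences was not tested.

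Y-linked counts (TSPY, USP9Y, DDX3Y and EIF1AY) were 50, 98 and 29 in WT control embryos 1 to 3 in the table of GATA3 KO, 68 in GATA3 KO embryo 6 and at most 2 in GATA3 KO embryos 3, 4 and 5. CDX2 KO embryo 5 had 155, and CDX2 KO embryos 2, 3 and 4 had 0. PTGR1 was at 85.4 in GATA3 KO embryo 6 and at 8.59 in CDX2 KO embryo 5. Over the embryos with more than 2 Y-linked counts alone, the log2 differences of PTGR1 were 1.40 and -2.23. Each rests on 1 KO embryo, and its sign was fixed by the choice of PTGR1. The part of the Y-linked difference between the groups in the PTGR1 values was not tested.

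PTGR2 (NM_001075249), the second reductase of keto prostaglandins, had a ratio of KO to WT control means of 1.43 for GATA3 KO and did not pass the test in either comparison. It was at 14.2, 17.3 and 10.9 in WT control embryos and at 20.3, 15.5, 20.2 and 24.6 in GATA3 KO embryos 3 to 6. GATA3 KO embryos 3, 5 and 6 lay above every WT control embryo, and embryo 4 lay within their range. With limma, adjusted by Benjamini-Hochberg over all tested transcripts, the log2 difference was 0.49 (SE 0.32, adjusted p = 0.385). Beside CDX2 KO it was at 22.8, 22.1 and 16.0 in WT control and at 15.9, 18.6, 20.7 and 23.6 in CDX2 KO embryos 2 to 5. The groups overlapped throughout, with means of 20.3 ± 3.73 (SD, n = 3) and 19.7 ± 3.25 (SD, n = 4). Its log2 difference was -0.04 (SE 0.39, adjusted p = 0.991 from limma), with a sign that changed under other scalings. Whether PTGR1 and PTGR2 differ in their response was not tested, since PTGR1 was chosen on this contrast.

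HPGD (NM_001034419), which starts the inactivation by oxidizing the hydroxyl group of active prostaglandins, was near the detection floor in the table of CDX2 KO. It had 2, 1 and 2 counts in WT control embryos 1 to 3 and 6, 3, 0 and 0 counts in CDX2 KO embryos 2 to 5. Only CDX2 KO embryo 2 exceeded 3 counts, so a difference was not detectable at this depth (adjusted p = 0.988 from limma on all transcripts listed).

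PTGS2 (NM_174445), the inducible cyclooxygenase, was detected in every embryo of both tables. It was at 146.8, 137.2 and 56.0 in WT control embryos 1 to 3 and at 309.7, 244.7 and 277.5 in GATA3 KO embryos 3 to 5. GATA3 KO embryo 6 had 41.9, below every WT control embryo. The group means were 113.3 ± 49.9 (SD, n = 3) and 218.4 ± 120.7 (SD, n = 4), and the log2 difference of 0.72 (SE 0.51) did not pass the threshold (adjusted p = 0.422 from limma). This result depended on single embryos. Without GATA3 KO embryo 6 the log2 difference was 1.40 and the adjusted p from limma 0.0252. Without WT control embryo 3 it was 0.28 (adjusted p = 0.812 from limma), and without GATA3 KO embryo 3 or 5 it was 0.44 and 0.50. Embryo 6 also held 68 Y-linked counts where the other GATA3 KO embryos held at most 2, and the part of this in the PTGS2 value was not tested. Compared with the WT control embryos, which all had Y-linked counts, embryo 6 alone, already below each of them, gave a log2 difference of -1.29.

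PTGS2 was at 225.8, 188.8 and 79.1 in WT control embryos in the table of CDX2 KO, and at 78.4, 69.9, 162.5 and 90.7 in CDX2 KO embryos 2 to 5. Embryos 2 and 3 lay below the lowest WT control embryo by less than the spread of the controls, and the others lay within the control range. Its log2 difference was -0.66 (SE 0.47, adjusted p = 0.900 from limma).

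PTGS1 (NM_001105323), the constitutive cyclooxygenase, was analysed in the table of CDX2 KO alone and had a mean below 10. It had 4, 5 and 1 counts in WT control and 6, 2, 6 and 8 counts in CDX2 KO embryos 2 to 5, that is 2.54, 3.95 and 1.15 against 7.35, 4.66, 4.98 and 4.30 after normalization. All 4 CDX2 KO embryos were above the controls, as were 3.41% of all 12047 transcripts of that table. At these counts, the log2 difference of 0.89 (SE 0.76) did not pass the threshold (adjusted p = 0.940 from limma on all transcripts listed), and embryo 3, with 2 counts, was under the floor.

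Of the terminal synthases, PTGES (NM_174443), the microsomal enzyme that makes prostaglandin E2, varied widely among the WT control embryos. It was at 28.4, 15.1 and 3.11 in WT control and at 10.1, 9.91, 1.19 and 3.28 in GATA3 KO embryos 3 to 6. WT control embryos 1 and 2 lay above all GATA3 KO embryos and WT control embryo 3, at 2 counts, lay below 3 of them. Its log2 difference was -1.10 (SE 0.75, adjusted p = 0.403 from limma), and it was -0.49 without WT control embryo 1, -0.64 without GATA3 KO embryo 5 and -1.91 without WT control embryo 3. Beside CDX2 KO, PTGES was at 38.7, 18.2 and 3.44 in WT control and at 4.90, 11.7, 12.4 and 9.13 in CDX2 KO embryos. All CDX2 KO embryos lay within the WT control range, and the log2 difference was -0.58 (SE 0.72, adjusted p = 0.917 from limma). It became 0.12 without WT control embryo 1.

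PTGES2 (NM_001166554), a membrane-associated synthase, had 3 to 12 counts in WT control and 5 to 11 counts in GATA3 KO embryos. Its normalized counts were 9.47, 7.56 and 4.66 against 7.24, 4.74, 5.96 and 4.11, with groups that overlapped and a log2 difference of -0.32 (SE 0.49, adjusted p = 0.742 from limma on all transcripts listed). Beside CDX2 KO it was at 14.0, 10.3 and 5.73 in WT control and at 14.7, 23.3, 9.12 and 10.7 in CDX2 KO embryos. The highest value belonged to embryo 3, the shallowest library, at 10 counts. PTGES2 had a log2 difference of 0.48 (SE 0.54, adjusted p = 0.907 from limma).

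PTGES3 (NM_001007806) encodes p23, a cochaperone of HSP90 that was also described as a cytosolic prostaglandin E synthase. It was at 194.9, 117.8 and 136.8 in WT control and at 235.9, 207.2, 240.6 and 235.6 in GATA3 KO embryos 3 to 6. All GATA3 KO embryos lay above the controls with means of 149.8 ± 40.2 (SD, n = 3) and 229.8 ± 15.2 (SD, n = 4). The log2 difference of 0.64 (SE 0.23) did not pass the threshold (adjusted p = 0.125 from limma), but it did without WT control embryo 1, at 0.85 (adjusted p = 0.0388 from limma). Leaving out another embryo gave 0.49 to 0.69 (adjusted p = 0.128 to 0.386 from limma). Beside CDX2 KO, PTGES3 was at 277.2, 150.1 and 182.3 in WT control and at 127.5, 35.0, 195.7 and 279.7 in CDX2 KO embryos 2 to 5. Embryo 3, the shallowest library, was far below the rest, and embryos 4 and 5 reached the control range. PTGES3 had a log2 difference of -0.64 (SE 0.61, adjusted p = 0.900 from limma), which was -0.04 without embryo 3.

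**Figure D2:**
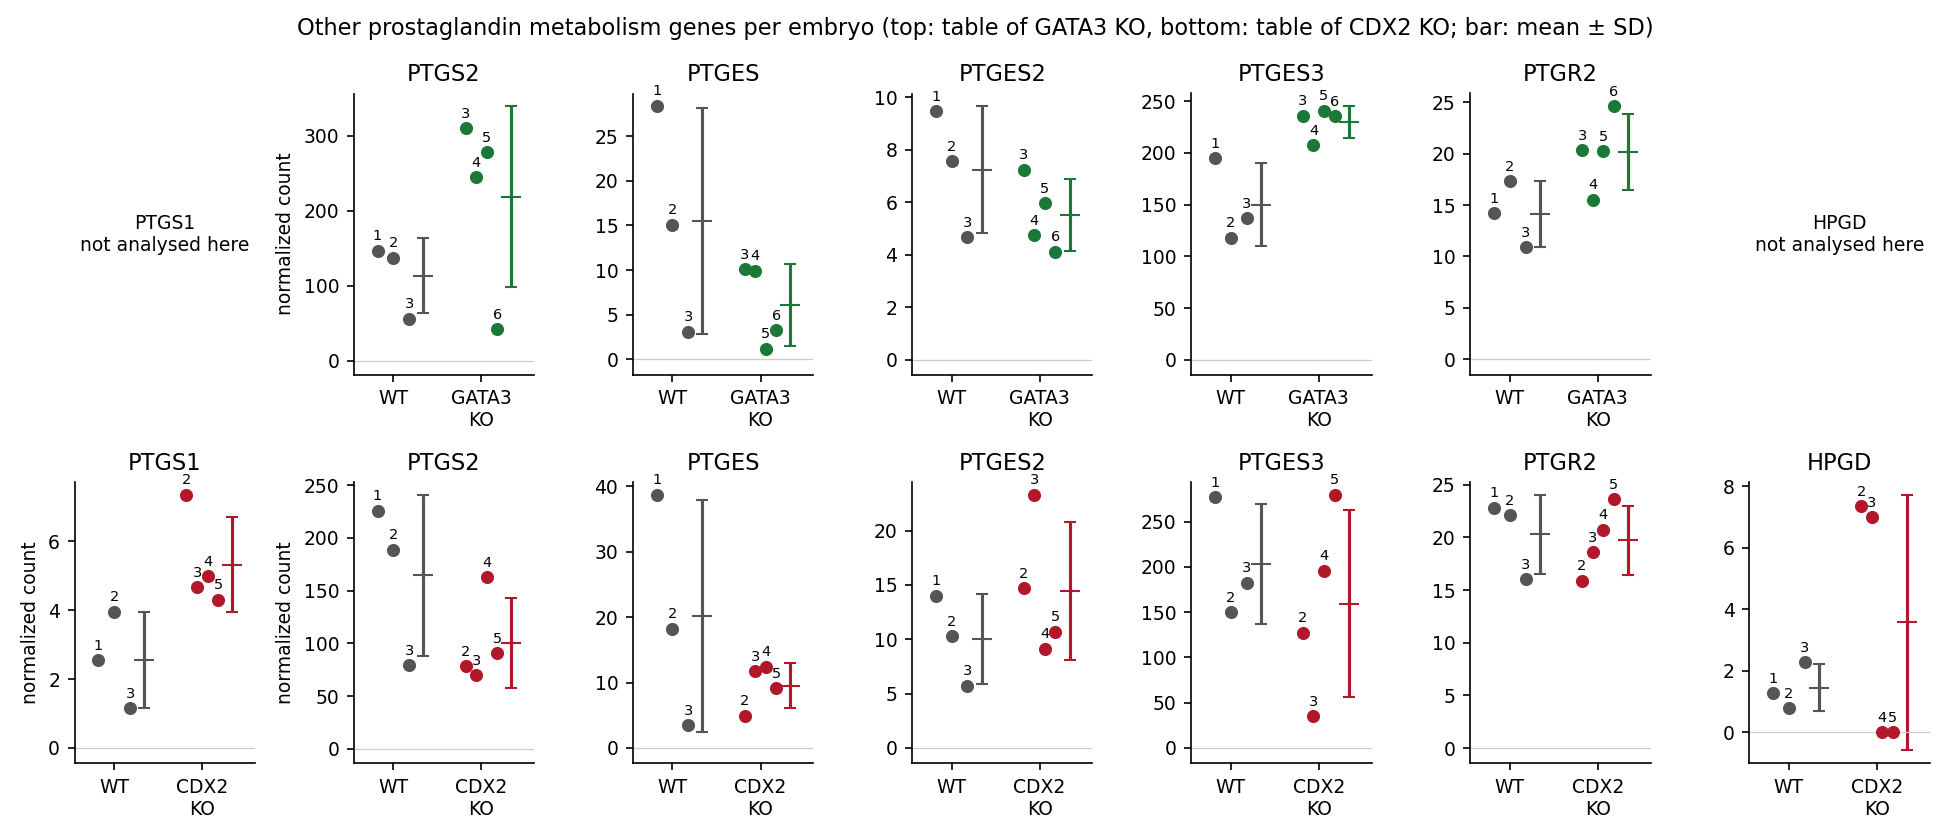
Normalized counts (vertical axes, linear, scaled for each gene) of the other members in each embryo, for the table of GATA3 KO (top) and of CDX2 KO (bottom). Points are embryos with their numbers and bars are mean ± SD. PTGS2 falls to 41.9 in GATA3 KO embryo 6, against 244.7 to 309.7 in the other GATA3 KO embryos, and PTGES3 is at 35.0 in CDX2 KO embryo 3.

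PTGR1 was not tested, and limma called 0 of the other members in either comparison. A call needed an adjusted p up to 0.05 and a fold change that reached 1.5 upward or 0.6 downward. Of the 4 tested in the table of GATA3 KO, 1 (PTGES3) had an unadjusted p under 0.05, beside 965 of all 4271 tested transcripts (22.6%), and of the 5 tested in that of CDX2 KO, 0 did. EdgeR and DESeq2 on the recovered counts also called 0 in each table. The share of all tested transcripts that passed the limma threshold was 2.01% (86 of 4271, 66 higher and 20 lower, against 48 and 57 after quantile normalization) for GATA3 KO, where edgeR called 126 and DESeq2 called 158, and 0.0% (0 of 5719, with 187 at an unadjusted p under 0.05) for CDX2 KO, where edgeR called 1 and DESeq2 called 9. Over all transcripts listed the shares were 2.01% and 0.0166%, and the members with a mean below 10 (PTGES2 for GATA3 KO, PTGS1 and HPGD for CDX2 KO) were not called. PTGES3 was the 1 of the 4 whose GATA3 KO embryos did not overlap WT control, beside 18.9% of all tested transcripts in either direction, and PTGES2 overlapped, where 7.07% of all listed transcripts lay above in every GATA3 KO embryo. For CDX2 KO, 0 of the 5 tested members were free of overlap, beside 5.88% of all tested transcripts in either direction and 2.52% upward. PTGES in both tables and PTGES2 for CDX2 KO reached the mean of 10 only through the group where they were higher, so no median over the tested members is given. Both comparisons use the same WT control embryos, and in these WT control embryo 3 had the lowest value for 5 of 6 members in the first table and for 6 of 8 in the second. WT control embryo 1 had the highest value for 5 of 6 and for 6 of 8.

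**Figure D3:**
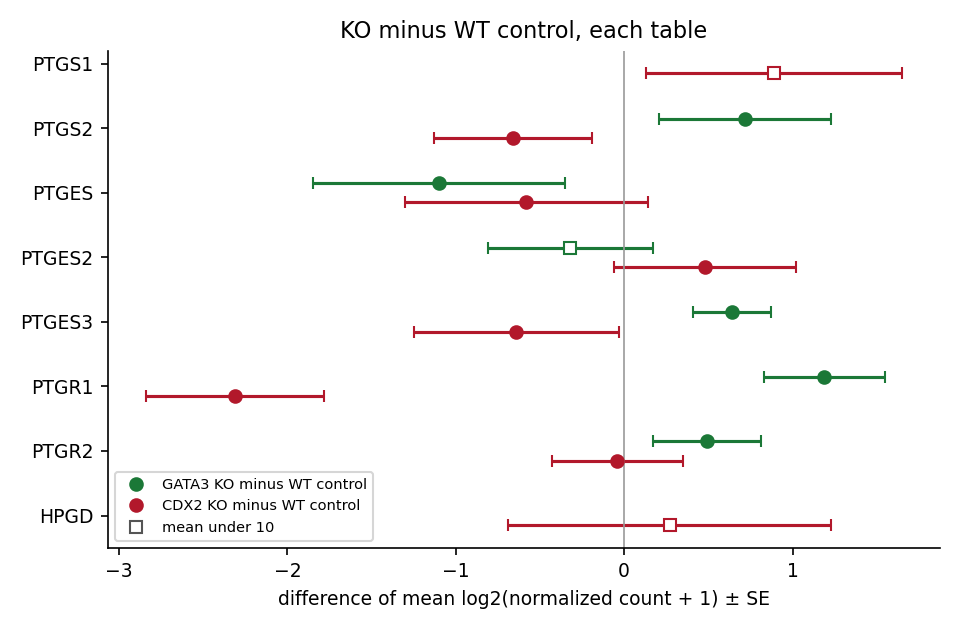
Difference between KO and WT control embryos in mean log2(normalized count + 1) (horizontal axis, with SE) for each member in each table; open squares mark members with a mean under 10. PTGR1 stands at 1.19 in GATA3 KO and -2.31 in CDX2 KO, while the other members lie between -1.10 and 0.89.

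The other genes of the pathway were taken from lists by role. With the members other than PTGR1, 58 genes were written. Of these, 29 were listed and 11 tested in the table of GATA3 KO, and 45 were listed and 19 tested in that of CDX2 KO. Limma called 0 of them in either table. At an unadjusted p under 0.05 there were 3 for GATA3 KO (ABCC1, PLAA and PTGES3) and 1 for CDX2 KO (ABCC1). For GATA3 KO the count of 3 of 11 stands beside 22.6% of all tested transcripts. EdgeR and DESeq2 each called ABCC1 for GATA3 KO, beside 2.95% and 3.7% of all tested transcripts, and neither called any for CDX2 KO. ABCC1 reached the mean of 10 for GATA3 KO only through WT control, at a mean of 24.7 against 9.9.

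Among genes of arachidonate supply, the highest means were those of LPCAT3, an acyltransferase that returns arachidonate to phospholipids, and PLA2G15, a lysosomal phospholipase. Their log2 differences were 0.57 (SE 0.33, adjusted p = 0.322) and 0.14 (SE 0.36, adjusted p = 0.838 from limma) for GATA3 KO, and 0.06 (SE 0.44, adjusted p = 0.985) and 0.17 (SE 0.52, adjusted p = 0.958 from limma) for CDX2 KO. PLAA, a ubiquitin-binding protein named as an activator of phospholipase A2, was at 16.6, 14.0 and 9.33 in WT control and at 30.4, 24.1, 29.8 and 26.3 in GATA3 KO embryos. The groups did not overlap, as for the 11.9% of all tested transcripts above WT control in every GATA3 KO embryo, and the log2 difference was 1.03 (SE 0.31, adjusted p = 0.0694 from limma). Without WT control embryo 1 the adjusted p from limma was 0.0457, and over the 6 fits that left out another embryo it was 0.0797 to 0.194. With edgeR and DESeq2 it was 0.134 and 0.207. For CDX2 KO the difference of PLAA was 0.01 (SE 0.46, adjusted p = 0.997 from limma). PLA2G4A, the cytosolic phospholipase that releases arachidonic acid, had a mean below 10 in both tables. It was at 7.89, 7.56 and 7.77 in WT control and at 18.8, 6.03, 4.76 and 2.46 in GATA3 KO embryos, and at 11.4, 10.3 and 11.5 in WT control and at 4.90, 11.7, 3.32 and 0.0 in CDX2 KO embryos. The groups overlapped in both tables. For CDX2 KO, 0 of the 8 supply genes tested were called (smallest adjusted p = 0.900 from limma, and 0 at an unadjusted p under 0.05 or by edgeR or DESeq2). FAAH, PLA2G4B, MGLL and ABHD6 reached the mean of 10 only through the CDX2 KO embryos, and PLA2G4A did not reach it through WT control, so the signs of the 8 are not counted.

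AKR1B1, an aldo-keto reductase that acts as a prostaglandin F synthase in bovine endometrium, was at 76.5, 33.5 and 23.3 in WT control and at 117.2, 55.6, 106.0 and 18.9 in GATA3 KO embryos 3 to 6. Embryo 6 was the lowest of its group, as it was for PTGS2. AKR1B1 had a log2 difference of 0.61 (SE 0.49, adjusted p = 0.477 from limma). Beside CDX2 KO it was at 119.3, 45.0 and 32.1 in WT control and at 11.0, 14.0, 116.1 and 66.6 in CDX2 KO embryos, with embryos 2 and 3 below the controls and embryos 4 and 5 within their range. For CDX2 KO the difference was -0.72 (SE 0.75, adjusted p = 0.901 from limma). PRXL2B, another prostaglandin F synthase, had log2 differences of -0.27 (adjusted p = 0.713) and -0.17 (adjusted p = 0.946 from limma). The prostacyclin and thromboxane synthases PTGIS and TBXAS1 had means below 10 in both tables.

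Most receptors had means below 10. Of 15 receptor genes, PPARD, a nuclear receptor for fatty acids, was tested in both tables, with log2 differences of -0.48 (SE 0.43, adjusted p = 0.526) for GATA3 KO and -0.14 (SE 0.43, adjusted p = 0.960 from limma) for CDX2 KO. RXRA, its dimerization partner, had a mean below 10 beside GATA3 KO, at 10.3, 9.73 and 4.66 in WT control and 2.89, 3.02, 2.38 and 0.821 in GATA3 KO embryos. Its log2 difference for CDX2 KO was 0.56 (SE 0.65, adjusted p = 0.913 from limma). The membrane receptors listed there, PTGER1, PTGER2, PTGER4, PTGFR, PTGDR and TBXA2R, had group means between 1.05 and 4.72. ABCC1, an export pump for leukotriene C4 and other conjugates, was at 18.9, 33.5 and 21.8 in WT control and at 10.1, 6.89, 11.9 and 10.7 in GATA3 KO embryos. All GATA3 KO embryos lay below the controls, as did 7.05% of all tested transcripts. ABCC1 had a log2 difference of -1.22 (SE 0.36, adjusted p = 0.0644 from limma). For CDX2 KO it was -1.07 (SE 0.50, adjusted p = 0.900 from limma), with overlapping groups.

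PTGR1 belongs to the medium-chain reductases, and 9 relatives were written as a list. Of 4 tested for GATA3 KO, 1 (CRYZ) rose, beside 1.55% of all tested transcripts called higher. CRYZ, a quinone reductase known as zeta-crystallin, was at 70.2, 41.1 and 45.1 in WT control and at 131.7, 89.6, 126.2 and 101.8 in GATA3 KO embryos 3 to 6. All GATA3 KO embryos lay above the controls, as did 11.9% of all tested transcripts. The log2 difference was 1.12 (SE 0.26, adjusted p = 0.0354 from limma), and edgeR and DESeq2 also called it. Leaving out 1 embryo at a time, the call was lost 5 times of 7 (without WT control embryo 2 or 3, or GATA3 KO embryo 3, 4 or 5), with an adjusted p from limma of up to 0.162 and a log2 difference that stayed between 0.97 and 1.22. In CDX2 KO embryos the log2 difference of CRYZ was -0.59 (SE 0.48, adjusted p = 0.900 from limma). VAT1, CRYZL1 and RTN4IP1 had log2 differences of 0.03, 0.10 and -0.04 for GATA3 KO and of -0.21, -0.21 and 0.19 for CDX2 KO, none called.

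PTGR1 is also known as a target of NFE2L2, the transcription factor of the oxidative stress response. Of 20 genes written for NFE2L2 and its targets, ABCC1 included, 13 were tested in each table and limma called 0. For GATA3 KO, 5 had an unadjusted p under 0.05 (ABCC1, FTH1, GSR, NFE2L2 and TXNRD1), a count of 5 of 13 beside 22.6% of all tested transcripts. ABCC1 was lower and the others were higher. The 1 call by edgeR and by DESeq2 was ABCC1, beside 2.95% and 3.7%, and it reached the mean of 10 only through WT control. For CDX2 KO, 1 (ABCC1) of 13 had an unadjusted p under 0.05, beside 3.27% of all tested transcripts, and edgeR and DESeq2 called 0. TXNRD1, thioredoxin reductase, was at 24.5, 28.1 and 18.7 in WT control and at 50.7, 56.9, 45.3 and 36.9 in GATA3 KO embryos (log2 difference 0.97, SE 0.28, adjusted p = 0.0634 from limma). Beside CDX2 KO it was at 37.4, 35.5 and 24.1 in WT control and at 38.0, 67.6, 44.0 and 44.6 in CDX2 KO embryos (log2 difference 0.56, SE 0.39, adjusted p = 0.900 from limma). Both comparisons share the WT control embryos, and the lowest CDX2 KO embryo, at 38.0, was just above the highest control at 37.4. TXNRD1 was picked after its values were seen, and 11.9% and 2.52% of all tested transcripts lay above WT control in every GATA3 KO and in every CDX2 KO embryo. NFE2L2 itself had log2 differences of 0.83 (SE 0.30, adjusted p = 0.119) and -0.18 (SE 0.44, adjusted p = 0.949 from limma). The median log2 difference of the list was 0.28 for GATA3 KO, with 9 of 13 positive, and -0.24 for CDX2 KO, with 4 of 13 positive, beside medians of 0.11 and -0.15 over all tested transcripts.

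**Figure D4:**
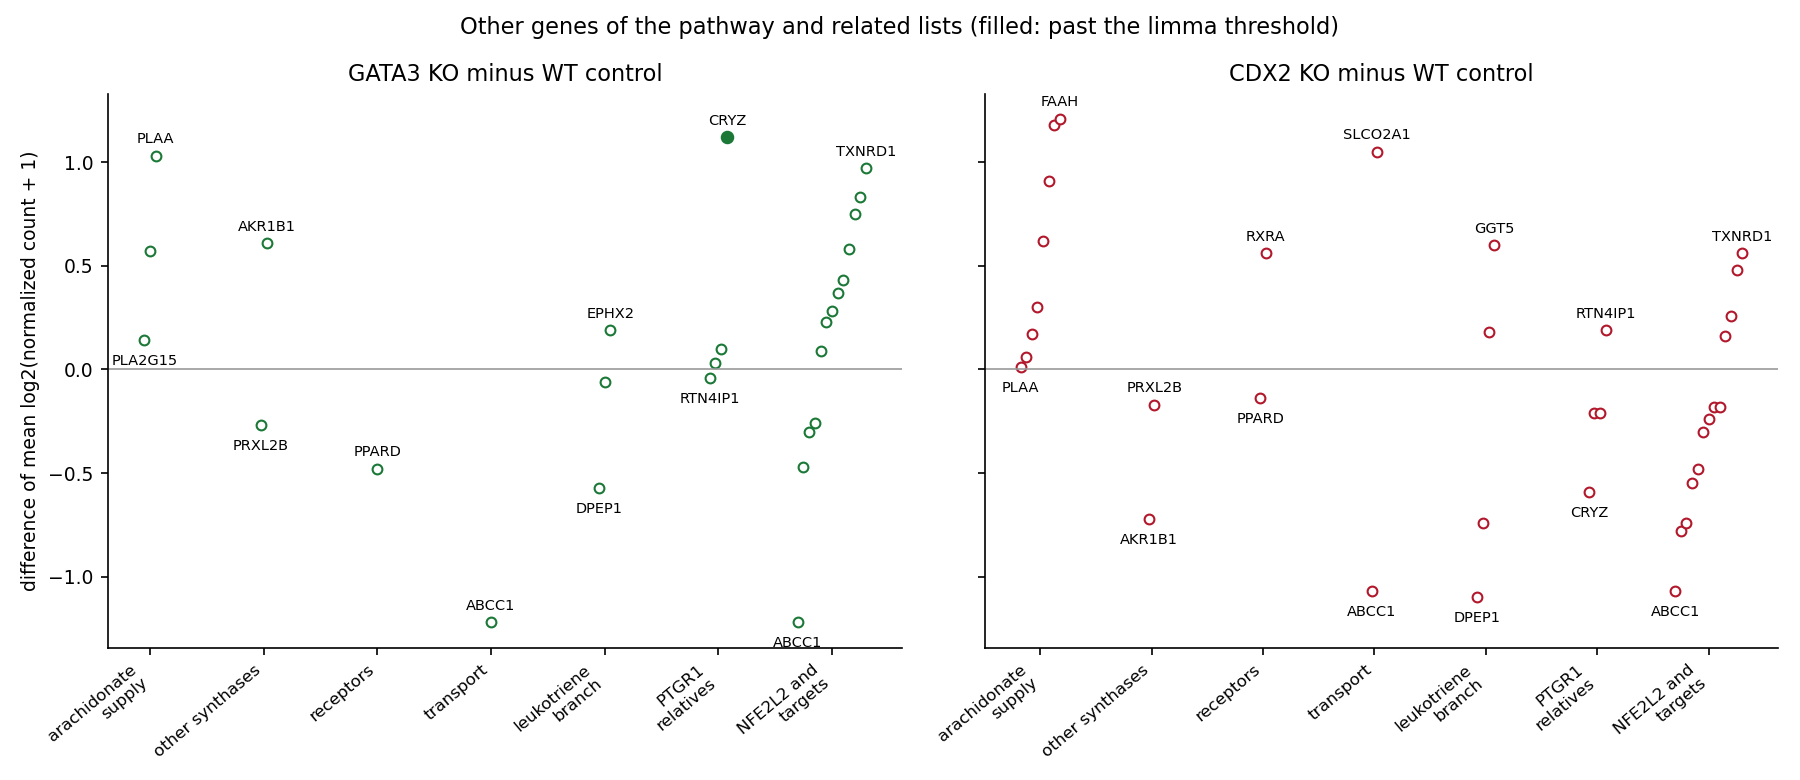
Difference between KO and WT control embryos in mean log2(normalized count + 1) (vertical axis) for each tested gene of the role lists, GATA3 KO on the left and CDX2 KO on the right. Points are genes, the highest and the lowest of each list are named, and filled points passed the limma threshold. CRYZ at 1.12 in GATA3 KO is the only filled point.

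The transcripts most like PTGR1 were ranked by Pearson's r of log2(normalized count + 1) over the 7 embryos of a table, as a description. Transcripts share the libraries and their depth, and the KO difference itself sets much of each r. Of 4270 others in the table of GATA3 KO, the first 5 were TAF13 (r = 0.978), LOC780876 (0.971), RNF8 (0.970), RRAS2 (0.969) and CNIH1 (0.965). TAF13, a subunit of the transcription factor TFIID, was at 14.2, 8.65 and 1.55 in WT control. In GATA3 KO embryos it was at 20.3, 15.1, 22.6 and 18.1. It had the same low WT control embryo 3 as PTGR1. The floor of that embryo was 4.66, and TAF13 at 1.55, the value of 1 read, and RRAS2 at 3.11 were under it. Their r thus rests in part on values under the floor. TAF13 and RRAS2 also reached the minimum mean for testing only through the GATA3 KO embryos. RNF8, a ubiquitin ligase of the DNA damage response, followed the same order of groups.

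For CDX2 KO, the first 5 of 5718 were WDR43 (r = 0.985), SLC34A2 (0.964), PDPN (0.948), TACC3 (0.946) and GM2A (0.942). WDR43, a ribosome biogenesis factor, had a small range, from 46.6 in CDX2 KO to 76.1 in WT control. SLC34A2, a sodium-phosphate cotransporter, was at 840.5, 586.1 and 208.6 in WT control and at 47.8, 44.3, 39.8 and 50.5 in CDX2 KO embryos. It shared with PTGR1 the low value of WT control embryo 3 and lower values in all CDX2 KO embryos. PTGR1 itself differed by 2.37 times among the CDX2 KO embryos, from 4.66, under the floor, to 11.0. PDPN, a membrane glycoprotein, ran from 39.6 to 75.5 in CDX2 KO and from 163.9 to 258.2 in WT control embryos. No gene was among the first 5 in both tables. Of the members, PTGR2 ranked highest in the table of GATA3 KO (r = 0.905, rank 59) and PTGS2 in that of CDX2 KO (r = 0.780, rank 133). PTGR2 had r = 0.358 and rank 2075 in the table of CDX2 KO.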

How the data were processed

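RNA of single bovine blastocysts was measured by Smart-seq2. The authors used Trimmomatic for trimming, HISAT2 for mapping (ARS-UCD1.2) and featureCounts for counting. The deposited signal per embryo is the read count scaled by a DESeq2 size factor, within each table. Each value was a whole multiple of one step (100.0%, tolerance 0.01), which gave the recovered counts. The tables also hold the authors' fold changes and p-values, which were not used. WT control columns were matched by number and KO columns by group. Symbols came from the RefSeq table of ARS-UCD2.0 (98.6% of transcripts); no coordinates are given.

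Transcripts whose mean over the embryos of a table reached 10 were tested with limma 3.58.1 in R 4.3.3. The test used log2(normalized count + 1), a prior that follows the mean level, and Benjamini-Hochberg adjustment. Members below that mean were tested on all transcripts listed, and PTGR1 was not tested. As the unit was normalized counts, the count tests edgeR 4.0.16 and DESeq2 1.42.0 on recovered counts were alternatives, beside a pseudocount of 0.1 or 5, no filter, quantile normalization, median-ratio rescaling, a fold change of 2 or 0.5 and leaving out each embryo. The fit of low members without the filter, the restriction to embryos with Y-linked counts, and the alternatives of CRYZ, PLAA and ABCC1 were added after seeing the data. The members and lists were chosen with earlier results of these data known. Named were all members, list genes past the threshold, list genes with a high mean in their role, and the 5 transcripts most like PTGR1. Other list genes (PLAA, PLA2G4A, PLA2G4B, FAAH, MGLL, ABHD6, RXRA, TXNRD1, NFE2L2, the membrane receptors) were chosen after their values were seen. Nothing in the labels states that embryos came from separate fertilizations, so p-values measure only the spread between these embryos. The code was tested on simulated data with Python 3.11.15.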

Additional observations from a re-analysis of the deposited data

Results flagged for a closer look

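PTGR1 lay above every WT control embryo in 4 of 4 GATA3 KO embryos and below every WT control embryo in 4 of 4 CDX2 KO embryos, with log2 differences of 1.19 and -2.31. The difference between these effects was not tested, since the tables were normalized separately, share the WT control embryos, and PTGR1 was chosen on these values.

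A member can also have 1 KO embryo that stands apart, taken as a gap to the next embryo that fills more of the range of the group in normalized counts than a limit for groups of 4 (Dixon). In the 14 groups of 4 KO embryos looked at, chance alone would mark about 1 in 20 (0.7 of 14) if they were independent. The groups share their embryos, and PTGR1 was chosen on these values, so this is no test. Of the 14, 2 held such an embryo. Both concern GATA3 KO embryo 4, the deepest library of its table, as the lowest of its group. PTGR1 was at 52.1 against 81.0 to 85.4 in the others, and PTGES3 at 207.2 against 235.6 to 240.6. The gap filled 0.868 and 0.852 of the range. For PTGS2, GATA3 KO embryo 6 at 41.9 against 244.7 to 309.7 was farther from its group in fold, but its gap filled 0.757 of the range, under the limit.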

How the results depend on the processing

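PTGR1 was chosen on groups that do not overlap, so leaving out an embryo could not turn its sign. Its log2 difference ran from 0.87 to 1.40 in GATA3 KO and from -2.49 to -1.92 in CDX2 KO across 8 settings each (the end at 1.40 rests on 1 KO embryo), and from 0.63 to 1.52 and from -2.92 to -1.93 when each embryo was left out. The number of prostaglandin genes called for GATA3 KO was 1 with edgeR and 1 with DESeq2 (ABCC1), 0 in the 6 other settings, and 0 to 2 when each embryo was left out (PLAA and PTGES3 without WT control embryo 1, PTGS2 without GATA3 KO embryo 6). For CDX2 KO it was 0 in all 15 fits. Some signs reversed, and the cause was not tested. PTGR2 in CDX2 KO became 0.09 with median-ratio rescaling, 0.05 with edgeR and 0.06 with DESeq2, and ran from -0.19 to 0.05 when each embryo was left out. PTGES2 in GATA3 KO became 0.02 with quantile normalization. HPGD in CDX2 KO became -0.74 with a pseudocount of 0.1 and ran from -0.25 to 0.77 when each embryo was left out. PTGES in CDX2 KO ran from -1.46 to 0.12, and PLAA in CDX2 KO from -0.23 to 0.28. PTGS2 in GATA3 KO was -1.29 over embryos with Y-linked counts, where the 1 KO embryo left was already known to lie below WT control.

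No paired analysis was possible because the KO columns carry numbers that are not the replicate numbers of the labels. Low counts limit what can be said of HPGD, PTGS1 and the membrane receptors. In the table of CDX2 KO, HPGD had 0 to 6 counts and PTGS1 1 to 8. The membrane receptors had group means between 1.05 and 4.72 in normalized counts, with single embryos higher. The part of depth in this was not tested.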

Other observations

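The leukotriene branch, which shares arachidonic acid with the prostaglandin route and whose product leukotriene B4 is oxidized by PTGR1, was examined as a list. Of 17 genes written, 3 were tested for GATA3 KO and 4 for CDX2 KO, and limma, edgeR and DESeq2 called 0, with 0 at an unadjusted p under 0.05. LTA4H, the hydrolase that makes leukotriene B4, was at 7.89, 18.4 and 12.4 in WT control and at 14.5, 9.91, 14.3 and 9.03 in GATA3 KO embryos. In the table of CDX2 KO it was at 12.1, 22.9 and 18.3 in WT control and at 23.3, 2.33, 7.46 and 19.9 in CDX2 KO embryos. DPEP1, a dipeptidase that cleaves leukotriene D4, had log2 differences of -0.57 (adjusted p = 0.407) and -1.10 (adjusted p = 0.900 from limma).

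PAG2, a pregnancy-associated glycoprotein of the trophoblast, was the 1 tested gene of the list written for interferon tau and maternal recognition. It was at 40.2, 29.2 and 1.55 in WT control and at 2.89, 4.31, 15.5 and 14.0 in GATA3 KO embryos, with the low WT control embryo 3 seen for PTGR1, PTGES and PTGS2. Its log2 differences were -0.80 (adjusted p = 0.565) for GATA3 KO and -0.77 (adjusted p = 0.923 from limma) for CDX2 KO, and the 3 tools called 0, with 0 at an unadjusted p under 0.05. For GATA3 KO, PAG2 reached the minimum mean for testing only through WT control, at a mean of 23.7 against 9.16.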
